A study of Triticum aestivum with 8 samples.

Results

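The accessible chromatin of wheat grain at the first and the last sampled stage, DAP5 and DAP20 (5 and 20 days after pollination), was compared through the accessible chromatin regions (ACRs) listed for each. ACRs of both lists that overlapped by at least 1 bp were merged into 1 locus, and each locus was sorted by the list or lists that held an ACR in it. This gave 150810 loci, of which 50834 had an ACR at DAP5 alone (33.7%), 42827 at DAP20 alone (28.4%) and 57149 at both stages (37.9%). Loci of the last set are called kept loci below. All 4 lists of the series, merged in the same way, gave 180461 loci.

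The grain came from the bread wheat cultivar AK58 (AiKang58), and nuclei were sorted by flow cytometry before the assay. The DAP5 group was endosperm from which the embryo had been taken out, and the DAP20 group was whole seed, with 2 sample records each. The labels count the days from fertilization, and DAP, the form used here, counts them from pollination. The 2 groups thus differed in both stage and tissue, and these cannot be told apart. Whole seed holds the embryo and the outer layers besides the endosperm, so that a region open in only some of its cells and a region weakly open in all of them cannot be told apart either. Each stage had a single list of ACRs and replicates had none of their own, so differences could not be set against replicate error and no test was made. The intervals given below are 95% intervals that cover counting error only, and neighbouring ACRs are not independent. The number of the 21 chromosomes that show a direction stands beside the main results. Those chromosomes come from the same 2 lists and are not replicates.

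ATAC-seq relies on the Tn5 transposase, which inserts adapters where DNA is free of nucleosomes, and stretches rich in insertions are taken as open chromatin. In plants, open regions often lie at promoters and at distal elements to which transcription factors bind, and they are treated as putative cis-regulatory elements. In the wheat grain, the early endosperm passes from a syncytium through cell formation, and the later endosperm fills with starch and with glutenin and gliadin storage proteins while the embryo grows. Bread wheat is a hexaploid whose subgenomes A, B and D each bring 1 set of homoeologous chromosomes. Genes of wheat are denser towards the chromosome ends, and the interior is rich in transposable elements.

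The DAP5 list held 108846 ACRs that covered 82.3 Mb, and the DAP20 list held 104407 ACRs that covered 56.6 Mb. Mean widths were 756 bp for DAP5 and 542 bp for DAP20 ACRs, and the medians were 500 bp and 446 bp. The lists were thus similar in number and differed in covered length. The lists carried no read numbers, so that the depth of the libraries is unknown here and its part in these differences was not tested. Of the DAP5 ACRs, 53.3% overlapped an ACR of the DAP20 list, and of the DAP20 ACRs, 59.0% overlapped an ACR of the DAP5 list. In base pairs, 30.1% of the length covered by either list was covered by both.

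The number of kept loci depended on how strictly a match was defined. It was the largest set on 20 of 21 chromosomes under the overlap of 1 bp, the exception being 7D. When the overlap had to reach at least 50% of the DAP5 width and at least 50% of the DAP20 width, the kept share was 23.0%. With 350 bp around the midpoint of each ACR, it was 31.0%.

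Loci present at 1 stage alone were narrow, and those of DAP20 were the narrowest. DAP5-alone loci had a mean width of 610 bp and a median of 500 bp, with 10% of them above 1091 bp. DAP20-alone loci had a mean width of 427 bp and a median of 350 bp, with 10% of them above 650 bp. The mean of DAP20-alone loci was below that of DAP5-alone loci on 21 of 21 chromosomes. Widths of 350 bp or less were found in 38.5% of DAP5-alone loci and in 66.9% of DAP20-alone loci. Exactly 350 bp was the width of 33.2% and 36.4% of them, and widths under 350 bp made up 5.34% and 30.5%. The lists as a whole differed in the same direction. Of all DAP5 ACRs, 25.4% were 350 bp wide and 4.56% were under 350 bp, and of all DAP20 ACRs, 29.4% and 18.7%. Widths above 1000 bp were found in 10.5% of the former and 1.69% of the latter. Kept loci had a mean of 1006 bp and a median of 800 bp, but a kept locus spans the ACRs of both lists and is wider by construction.

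The ACRs themselves can be compared without this effect. DAP5 ACRs in kept loci had a mean width of 884 bp, and DAP5 ACRs outside them one of 610 bp. DAP20 ACRs in kept loci had a mean width of 622 bp, and those outside them one of 427 bp. The DAP20 ACRs of kept loci were thus about as wide as the DAP5 ACRs that had no partner, and the width curves of these groups nearly coincide.

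**Figure D1:**
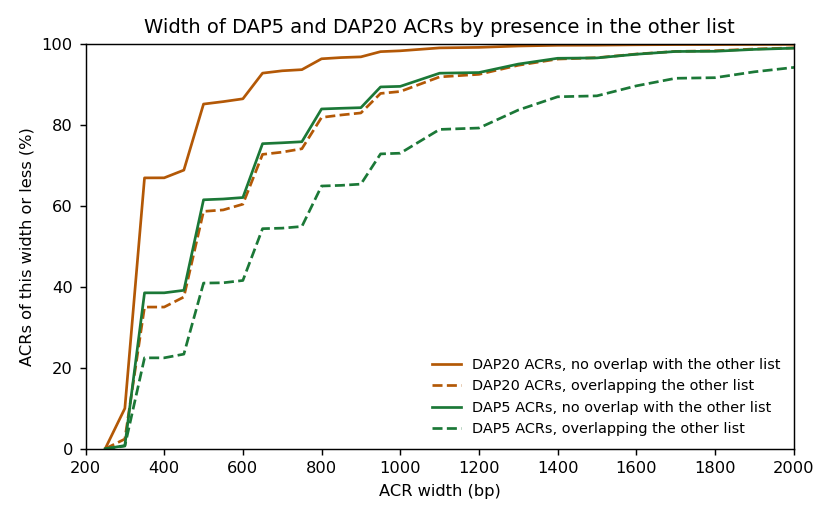
Cumulative share of ACRs (vertical axis, %) by width (horizontal axis, bp, shown up to 2000 bp) for DAP5 ACRs (green) and DAP20 ACRs (orange), with solid lines for ACRs without and dashed lines for ACRs with an overlap in the other list. Of DAP20 ACRs without an overlap, 66.9% were at most 350 bp wide, against 38.5% of DAP5 ACRs without one, and the curve of overlapping DAP20 ACRs lies close to that of DAP5 ACRs without an overlap.

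The share of ACRs found at the other stage rose with their width in both lists. Of DAP5 ACRs of exactly 350 bp, 39.0% were kept (38.4 to 39.6%). The share was 52.5% for widths of 501 to 650 bp, 69.7% for 1001 to 1500 bp and 86.5% above 2000 bp (85.4 to 87.5%). Of DAP20 ACRs of 350 bp, 49.2% were kept (48.7 to 49.8%). The share was 72.6% for 501 to 650 bp, 89.6% for 1001 to 1500 bp and 93.8% above 2000 bp (91.7 to 95.5%). At each width from 350 bp upwards, DAP20 ACRs were kept more often than DAP5 ACRs of the same class. DAP20 ACRs were matched to the DAP5 list, which covered 82.3 Mb, and DAP5 ACRs to the DAP20 list, which covered 56.6 Mb. The part of this in the higher DAP20 shares was not tested. Wide ACRs also have more bases at which to meet a partner, and how much of the rise this makes up was not tested.

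ACRs under 350 bp went against this order. There were 4960 of them at DAP5, of which 45.3% were kept (43.9 to 46.7%), and 19506 at DAP20, of which 33.0% were kept (32.4 to 33.7%). Widths ran mostly in steps of 150 bp from 350 bp upwards, and widths off these steps made up 18.2% of the DAP5 list and 39.6% of the DAP20 list. With only ACRs on the steps, the median width was 500 bp for DAP5-alone and 350 bp for DAP20-alone loci. This setting leaves no width under 350 bp, so that the DAP20-alone median could not fall below 350 bp. The part of the off-step ACRs in the mean widths and covered lengths of the lists was not tested.

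**Figure D2:**
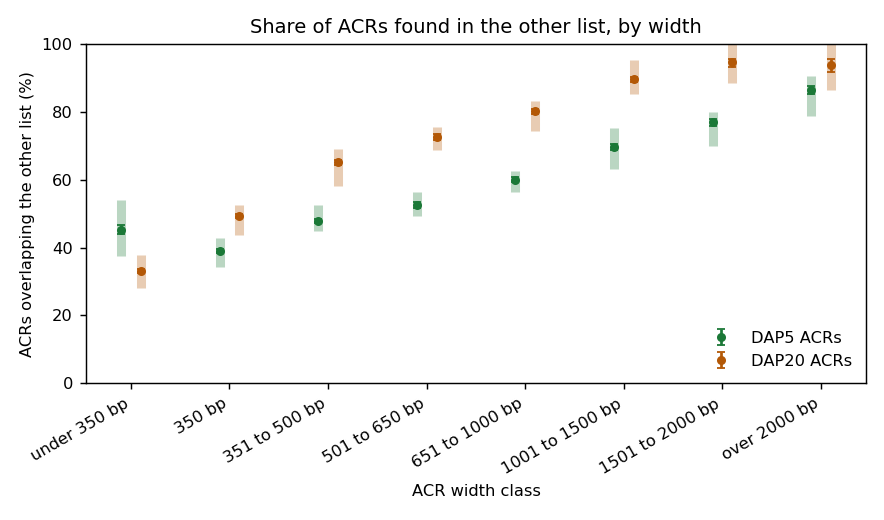
Share of ACRs that overlapped an ACR of the other list (vertical axis, %) by width class (horizontal axis) for the DAP5 list (green) and the DAP20 list (orange). Points give the share with its Wilson 95% interval, and pale bars run from the lowest to the highest of the 21 chromosomes. The share rose from 39.0% at 350 bp to 86.5% above 2000 bp for DAP5, and from 33.0% under 350 bp to 94.6% at 1501 to 2000 bp for DAP20.

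The widest loci of each set were far above its median width. The widest DAP5-alone locus spanned 6941 bp on chromosome 6D (305271930 to 305278870), in the interior of the chromosome, and it also had an ACR at DAP9 and at DAP15. The widest in subgenome A was 4532 bp (5A, 554070783 to 554075314), with no ACR at DAP9 or DAP15, and the widest in subgenome B was 4850 bp (2B, 206119029 to 206123878), with an ACR at both. The widest DAP20-alone locus spanned 4550 bp on 7D (625666514 to 625671063), 13.0 Mb from the chromosome end, with an ACR at DAP15 and none at DAP9. The widest in subgenomes A and B spanned 3316 bp (5A, 616546814 to 616550129) and 3200 bp (1B, 625906837 to 625910036), and both had an ACR at DAP9 and at DAP15. All coordinates are those of the lists, counted from 1, and their genome build is not given in the sources used here. What genes lie there was not analysed here.

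Kept loci mostly held 1 ACR at each stage, and the DAP20 ACR was mostly the narrower. Of the 57149 kept loci, 52562 (92.0%) had 1 ACR in each list. In 3744 loci (6.55%), 1 DAP5 ACR faced 2 or more DAP20 ACRs, whereas the opposite, 2 or more DAP5 ACRs facing 1 DAP20 ACR, was found in 693 loci (1.21%). The DAP5 ACRs that were split at DAP20 were wide, with a median of 1850 bp, and the DAP20 ACRs covered a median of 67.2% of that width.

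Among the loci with 1 ACR in each list, the DAP20 ACR lay inside the DAP5 ACR in 35.9%, and the DAP5 ACR lay inside the DAP20 ACR in 13.7%. Both edges were the same in 0.388% (204 loci). The ACRs were staggered in the other 26276 loci. In those, the DAP20 ACR was shifted to lower coordinates in 50.64% (50.04 to 51.25%) and to higher coordinates in 49.4%. The median distance between the midpoints was 88 bp, and in 10% of the loci it was over 336 bp. The median DAP20 ACR had 94.5% of its length inside its DAP5 partner, and the median DAP5 ACR had 76.2% of its length inside its DAP20 partner.

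The width change was measured at each kept locus as the base pairs covered at DAP20 over those covered at DAP5. The median was -0.25 on the log2 scale, a ratio of 0.842, with the middle 50% of the loci between -0.76 and 0.02. The locus was narrower at DAP20 in 61.1%, equal in 13.0% and wider in 25.9%. The width had fallen at least 2-fold in 9562 loci (16.7%) and had risen at least 2-fold in 1708 loci (2.99%). Narrowing was thus the more frequent direction, while a smaller part of the loci were wider. With only ACRs on the width steps, the median was -0.37, and with loci of 1 ACR in each list it was -0.20.

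The size of the change followed the width, and it depended on which list the width was read from. Of loci with a DAP5 width above 2000 bp, the median change was -1.50, and for a DAP5 width of 350 bp it was 0.00. Classed by the DAP20 width, the median was -0.51 at 350 bp and 0.01 above 2000 bp. A class defined by 1 list selects loci that are wide or narrow in that list, so that these values are not measures of the same change. Classed by the geometric mean of both widths, the median was small in the narrow classes. It was -0.06 under 350 bp and -0.08 at 351 to 500 bp, the largest class with 14464 loci. Above these, the median was -0.38 at 501 to 650 bp, -0.46 at 651 to 1000 bp and -0.33 at 1001 to 1500 bp. It was -0.35 at 1501 to 2000 bp and -0.30 above 2000 bp. By this measure, the median was negative in each class except that of 350 bp. There, most ACRs had the same width in both lists and the median was 0.00.

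Single loci changed far more. Among loci with 1 ACR in each list, the largest narrowing was from 6800 bp at DAP5 to 292 bp at DAP20 on 7D (14879119 to 14885937), a log2 change of -4.54. The largest widening was from 500 bp to 4398 bp on 2B (33349096 to 33353493), a log2 change of 3.14. Both loci had an ACR at DAP9 and at DAP15. The widest kept locus, on 1D (408067550 to 408079442), spanned 11893 bp, with 1 ACR of 11750 bp at DAP5 and 3 ACRs that together covered 2506 bp at DAP20. The widest kept locus of subgenome A, on 3A (632542093 to 632553173), had 10976 bp at DAP5 and 5100 bp in 6 ACRs at DAP20. That of subgenome B, on 6B (685960677 to 685970326), had 9650 bp at DAP5 and 5932 bp in 5 ACRs at DAP20. The widest kept locus of each subgenome held a single DAP5 ACR that was split at DAP20. These loci were picked by the largest span, which favours wide DAP5 ACRs. The widest ACR had 11750 bp in the DAP5 list and 8300 bp in the DAP20 list.

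Kept loci narrowed on every chromosome, by amounts that differed little. The median log2 change lay below 0 on 21 of 21 chromosomes. It was lowest on 1A (-0.30, interval -0.34 to -0.25) and 6D (-0.30, -0.35 to -0.26), followed by 1D (-0.30), 5A (-0.29) and 5D (-0.27). It was closest to 0 on 7B (-0.16, -0.21 to -0.12), 4A (-0.18) and 2D (-0.18). The intervals of 1A and 6D lay below that of 7B without an overlap, whereas neighbouring chromosomes in this order overlapped. The share of kept loci that had narrowed at least 2-fold ran from 14.0% on 7B to 19.4% on 6D. The share that had widened at all was highest on 2D, at 32.6%, and lowest on 6D, at 23.7%.

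By subgenome, the median change was -0.24 for A, -0.22 for B and -0.26 for D. B was narrowed less than D in 6 of 7 homoeologous groups, by 0.04 on average, and A less than D in 4 of 7. The difference by position was of similar size. The median was -0.22 in the outer 20% of the chromosome at either end and -0.28 in the interior. In the interior of subgenome D it reached -0.31, against -0.25 in the interiors of both A and B, while the ends of D had the same value as those of A, -0.23. Along the chromosome, the values ran from -0.15 in the first 10% of the length to -0.31 between 40 and 50%, and stood at -0.25 in the last 10%.

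DAP20-alone loci lay closer to the chromosome ends than DAP5-alone loci. The outer 20% on both sides (40% of the chromosome in total) contained 67.5% of DAP20-alone loci (67.1 to 68.0%), 62.9% of kept loci (62.5 to 63.3%) and 60.4% of DAP5-alone loci (59.9 to 60.8%). DAP20-alone loci exceeded DAP5-alone loci by 7.17 points (6.56 to 7.79) and did so on 21 of 21 chromosomes. The difference was largest on 1D (11.4 points) and 5D (10.9 points) and smallest on 6A (2.24 points). With ACRs of at least 350 bp only it was 7.42 points, and with only ACRs on the width steps it was 5.23 points. DAP20-alone loci were also the narrower under these settings, and the part of width in the difference was not tested.

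DAP20-alone loci also exceeded kept loci at the ends, by 4.68 points (4.09 to 5.27) and on 20 of 21 chromosomes, the exception being 1B. Kept loci exceeded DAP5-alone loci by 2.49 points (1.91 to 3.07), with 4 chromosomes of the opposite direction. The median distance to the chromosome end was 80.3 Mb for DAP20-alone loci, 91.2 Mb for kept loci and 97.4 Mb for DAP5-alone loci.

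The same pattern can be read as a ratio of the sets. At the ends, there were 0.943 DAP20-alone loci for each DAP5-alone locus, and in the interior 0.690. The ratio was 1.01 in the first 10% of the chromosome, fell to 0.638 between 40 and 60%, and was 0.980 between 80 and 90% and 0.900 in the last 10%. The kept share was highest between 40 and 50% of the length, at 44.5%, where the DAP20-alone share was lowest, at 21.6%. DAP5-alone loci were most frequent between 60 and 70%, at 39.5% of the loci there.

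The outermost bases went against the trend towards the end. Within 5 Mb of the end, the ratio was 0.787, and it rose to 0.879 at 5 to 10 Mb, 0.908 at 10 to 20 Mb, 0.989 at 20 to 50 Mb and 0.984 at 50 to 100 Mb. It then fell to 0.793 at 100 to 200 Mb and 0.671 beyond. DAP5-alone loci were thus the more frequent in each of these ranges in Mb, least so some way in from the tip and more so at the tip itself. With distance taken as a share of the length, the ratio was 1.01 at 5 to 10% from the nearer end (7847 DAP5-alone and 7888 DAP20-alone loci).

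**Figure D3:**
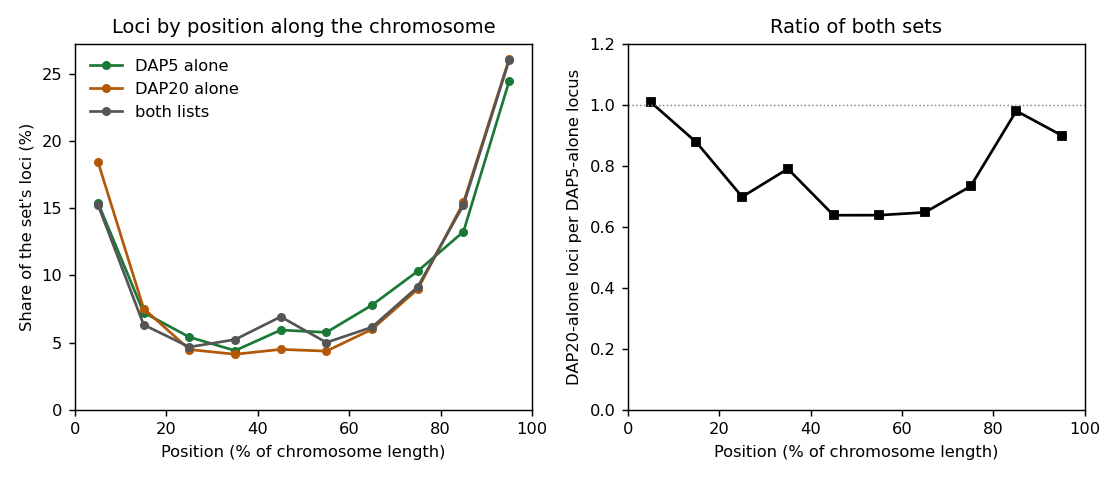
Left, share of the loci of each set (vertical axis, %) in steps of 10% of the chromosome (horizontal axis, % of length from the first base, 21 chromosomes pooled), for DAP5-alone loci (green), DAP20-alone loci (orange) and loci in both lists (grey). Right, number of DAP20-alone loci for each DAP5-alone locus in the same steps, which fell from 1.01 in the first 10% to 0.638 between 40 and 50% and was 0.980 between 80 and 90%.

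Chromosomes differed in the balance of DAP5-alone and DAP20-alone loci. There were more DAP5-alone than DAP20-alone loci on 19 of 21 chromosomes. The exceptions were 2D, with 2682 DAP5-alone and 2819 DAP20-alone loci (ratio 1.05), and 7B, with 2127 and 2166 (ratio 1.02). The ratio was lowest on 7D (0.774), 6A (0.775) and 7A (0.776), so that homoeologous group 7 held both 1 of the highest and 2 of the lowest values. Chromosome 4B (0.931) and 4A (0.909) followed below 7B. The kept share was highest on 6B, at 40.3% (39.2 to 41.4%), and lowest on 7D, at 35.2% (34.2 to 36.2%), and 2D, at 35.3% (34.3 to 36.3%). The low kept share of 7D went with the highest DAP5-alone share of any chromosome (36.5%), and that of 2D with the highest DAP20-alone share (33.1%).

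**Figure D4:**
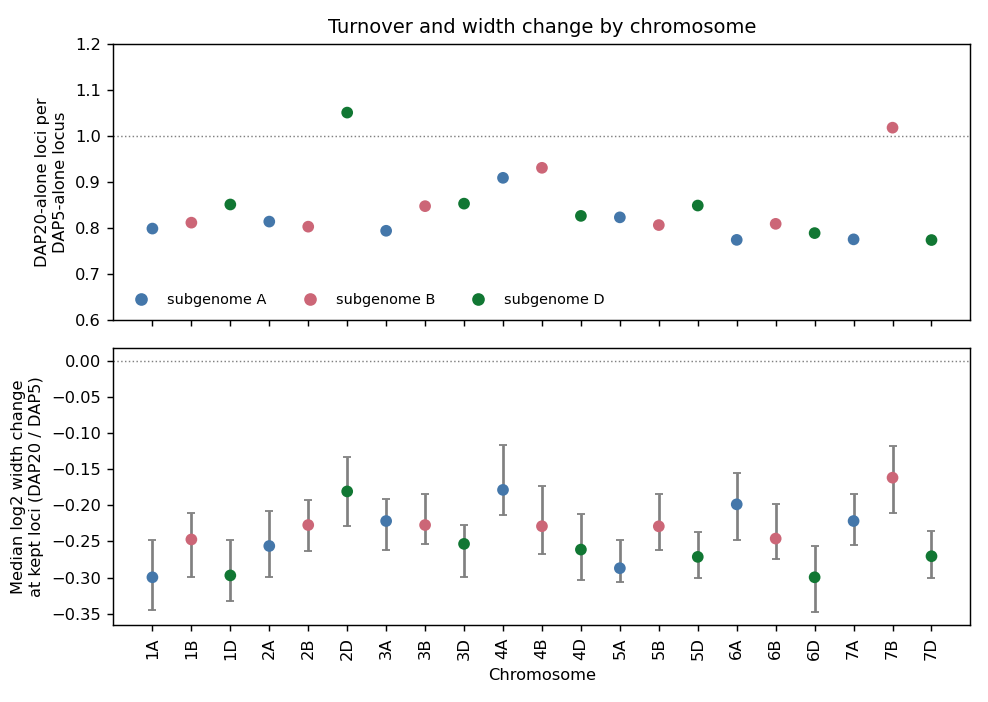
Upper panel, number of DAP20-alone loci for each DAP5-alone locus (vertical axis, starting at 0.6) on each of the 21 chromosomes, and lower panel, median log2 width change at kept loci with its 95% interval, coloured by subgenome A (blue), B (red) or D (green). Only 2D (1.05) and 7B (1.02) lie above 1 in the upper panel, and all 21 medians in the lower panel lie below 0, from -0.30 on 1A to -0.16 on 7B.

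The subgenomes were much alike in the turnover of their ACRs. Of the loci of subgenome A, 34.1% were DAP5 alone, 27.7% DAP20 alone and 38.2% kept. In B, these shares were 33.3, 28.5 and 38.2%, and in D they were 33.8, 29.0 and 37.3%. The kept share was higher in B than in D by 0.968 points (0.371 to 1.57), but in only 4 of 7 homoeologous groups. Taken as D minus B, the difference was -0.589 points (-1.21 to 0.037) without chromosome 2D, left out after the values were seen, and with only ACRs on the width steps it was -0.295 points (-0.897 to 0.308). With a reciprocal overlap of 50% it was larger, at -1.72 points (-2.20 to -1.23), with D below B in 7 of 7 groups, and around midpoints it was -1.37 points (-1.92 to -0.825), in 6 of 7 groups. A and B differed by -0.0129 points (-0.619 to 0.594).

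In density, D stood above A and B in all 3 sets. The mean number of DAP5-alone loci per Mb over the 7 chromosomes of a subgenome was 3.42 ± 0.320 (SD) for A, 3.14 ± 0.452 for B and 4.46 ± 0.329 for D. DAP20-alone loci numbered 2.77 ± 0.239, 2.69 ± 0.326 and 3.81 ± 0.367 per Mb, and kept loci 3.83 ± 0.373, 3.62 ± 0.490 and 4.94 ± 0.454 per Mb. D exceeded A and B in 7 of 7 groups in each set. In numbers per chromosome, not divided by the length, D exceeded A by 102 DAP5-alone loci and by 198 DAP20-alone loci on average, in 5 and 6 of 7 groups. The shorter D chromosomes enter the density.

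Loci of 1 stage had different surroundings. The median distance from a DAP5-alone locus to the nearest kept locus, edge to edge, was 13.8 kb, and that from a DAP20-alone locus was 21.6 kb. Within 10 kb of a kept locus lay 45.8% of DAP5-alone loci (45.4 to 46.2%) and 39.4% of DAP20-alone loci (39.0 to 39.9%), a difference of -6.36 points (-7.00 to -5.73) that was negative on 21 of 21 chromosomes, from -11.5 on 1A to -3.04 on 7D. This was so although DAP20-alone loci were more frequent at the chromosome ends, where kept loci are dense. At the ends, the shares were 51.2% and 42.7%, and in the interior 37.6% and 32.6%.

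This difference depended on the definition of a kept locus. With 350 bp around each midpoint it was -1.10 points (-1.68 to -0.53), and with a reciprocal overlap of 50% it was -0.483 points (-0.996 to 0.030). With a minimum width of 350 bp it was -4.59 points. Its direction was the same in each, but most of its size was present only where whole ACRs counted as a match on 1 shared base.

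**Figure D5:**
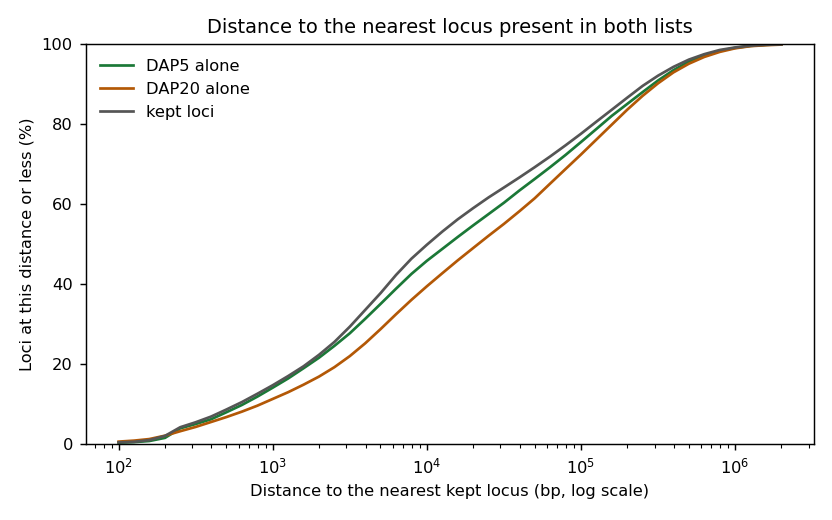
Cumulative share of loci (vertical axis, %) by the distance to the nearest kept locus (horizontal axis, bp, log scale) for DAP5-alone loci (green), DAP20-alone loci (orange) and, as measured to the nearest other kept locus, kept loci (grey). At 10 kb the curves stand at 45.8, 39.4 and 49.8%, and the orange curve lies lowest from about 1 kb to 100 kb.

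Each set was also grouped with itself. The median distance to the nearest locus of the same set was 9.51 kb for DAP5-alone loci, 25.7 kb for DAP20-alone loci and 10.1 kb for kept loci. From a DAP5-alone to the nearest DAP20-alone locus it was 44.2 kb. Of DAP5-alone loci, 28.0% had another within 2 kb, against 16.7% of DAP20-alone loci. There were fewer DAP20-alone loci, so that larger distances follow in part from their number. The order of loci along the chromosome does not depend on distance. The next locus after a DAP5-alone locus was another of its set in 40.7% (40.3 to 41.2%), against 33.7% of all loci. After a DAP20-alone locus it was another of its set in 35.7% (35.2 to 36.1%), against 28.4% of all loci. After a kept locus it was another kept locus in 40.8%, against 37.9%. DAP5-alone and DAP20-alone loci followed each other less often than their shares of all loci, at 23.4% and 27.8%.

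Unbroken runs of at least 5 neighbouring loci of 1 set numbered 1019 for DAP5-alone loci, 575 for DAP20-alone loci and 1040 for kept loci. They held 12.2% of DAP5-alone, 7.78% of DAP20-alone and 10.6% of kept loci. The longest DAP5-alone run had 16 loci over 254 kb on 6A (572146243 to 572400601), with a mean width of 734 bp, of which 2 had an ACR at DAP9 and 1 at DAP15. The longest DAP20-alone run had 15 loci over 420.0 kb on 1D (448230084 to 448650082), with a mean width of 548 bp, of which 3 had an ACR at DAP9 and 4 at DAP15. Of all DAP5-alone loci, 55.1% had an ACR at DAP9 and 29.3% at DAP15, and of all DAP20-alone loci 24.7% and 37.4%, so that the DAP5-alone run lay well below its set and the DAP20-alone run closer to it. The longest run of kept loci, named after its values were seen, had 15 loci over 3167 kb on 6D, of which 14 had an ACR at DAP9 and 13 at DAP15, near the shares of all kept loci (87.2% and 82.2%).

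In windows of 10 Mb, the balance of the sets varied more than between chromosomes. Windows hold far fewer loci and thus have a larger counting error, and its part in the wider spread was not tested. Of 1099 windows with at least 50 loci, 309 (28.1%) had more DAP20-alone than DAP5-alone loci and 758 had fewer. The DAP5-alone share ran from 14.0% to 68.4% with a median of 34.4%, and the DAP20-alone share from 7.69% to 51.2% with a median of 27.2%. The highest DAP5-alone share was found on 7D from 460 to 470 Mb, where 54 of 79 loci were DAP5 alone (57.5 to 77.6%) and 10 were DAP20 alone. The highest DAP20-alone share was found on 1D from 20 to 30 Mb, where 66 of 129 loci were DAP20 alone (42.6 to 59.6%) and 31 were DAP5 alone. These windows were the highest of 1099, so that their shares are expected to be extreme.

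Some of these windows lay side by side. The longest stretch with more DAP20-alone loci in each window, named after its values were seen, lay on 7B from 570 to 680 Mb, with 583 DAP20-alone and 464 DAP5-alone loci in 11 windows (ratio 1.26). Kept loci in it had a median log2 width change of -0.11, against -0.16 for the whole of 7B. The longest stretch with more DAP5-alone loci lay on 3D from 330 to 520 Mb, with 816 DAP5-alone and 546 DAP20-alone loci in 19 windows (ratio 0.669) and a median width change of -0.30, against -0.25 for the whole of 3D.

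Width change at kept loci was negative in nearly all windows. It was below 0 in 990 of 1099 windows, 0 in 103 and above 0 in 6. Across the windows, the log2 ratio of DAP20-alone to DAP5-alone loci and the median width change were weakly related, with r = 0.354 and rho = 0.341 over 1099 windows. Both measures come from the same 2 lists, and neighbouring windows are not independent, so that this is a description only.

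The lists of DAP9 endosperm and DAP15 seed had no part in the sorting and show where the loci stood in between. An ACR at DAP9 was found in 55.1% of DAP5-alone loci (54.6 to 55.5%), and an ACR at DAP15 in 29.3% (28.9 to 29.7%). For DAP20-alone loci, the share was 24.7% with DAP9 (24.3 to 25.1%) and 37.4% with DAP15 (36.9 to 37.9%). Loci of the early stage were thus more often found at DAP9 and loci of the late stage more often at DAP15. The first order held on 21 of 21 chromosomes and the second on 20. The exception was 4B, where the DAP15 list stands apart and the shares with an ACR at DAP15 were 20.5% of DAP5-alone, 25.1% of DAP20-alone and 57.6% of kept loci, the lowest of any chromosome in each set. Without 4B, DAP15 ACRs were found in 29.6% of DAP5-alone and 37.9% of DAP20-alone loci. DAP9 was endosperm like DAP5, and DAP15 was seed like DAP20, so that nearness in stage and sameness of tissue cannot be told apart here. The number and the covered length of the DAP9 and DAP15 lists also enter these shares, and their part was not tested. Kept loci, too, had an ACR more often at DAP9 (87.2%) than at DAP15 (82.2%).

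Kept loci were mostly present throughout. The DAP9 list held an ACR in 87.2% of them (86.9 to 87.4%) and the DAP15 list in 82.2% (81.9 to 82.5%), and 75.8% had an ACR in both. In contrast, 6.47% (3698 loci) were found at the first and the last stage and at neither stage between. Their mean width was 633 bp, against 1091 bp for kept loci of every list, and 72.1% of them lay at the chromosome ends, against 61.6%. Narrow loci have fewer bases at which to meet an ACR, and the part of this in the contrast of widths was not tested.

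The DAP5-alone loci fell into 3 larger groups by these lists. They were absent from both in 38.6% (19606 loci), present at DAP9 only in 32.2% (16349 loci) and present at both in 22.9% (11637 loci), which leaves DAP20 as the sole list without an ACR. The mean width of these groups was 479, 665 and 780 bp. Of DAP20-alone loci, 54.3% (23236 loci) were absent from both, 21.02% (9001 loci) were present at DAP15 only and 16.4% (7015 loci) were present at both, with mean widths of 398, 459 and 485 bp. Loci found in more lists were thus wider in both sets. Wider loci have more bases at which to meet an ACR of another list, and the part of this was not tested. The share at the chromosome ends was highest for loci of a single list, at 65.4% of DAP5-alone and 71.1% of DAP20-alone loci, and lowest for those absent from the opposite end of the series only, at 55.0% and 62.0%.

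At a single width, the DAP5-alone and DAP20-alone sets lay closer together in the DAP9 share than at all widths. In the DAP15 share they lay further apart. Among loci of exactly 350 bp, 37.5% of 16871 DAP5-alone loci had an ACR at DAP9 and 22.0% at DAP15. Of 15598 DAP20-alone loci of this width, 24.9% had an ACR at DAP9 and 36.7% at DAP15. The DAP5-alone share at DAP9 and the DAP20-alone share at DAP15 then stood close to each other, at 37.5% (36.8 to 38.2%) and 36.7% (35.9 to 37.4%), whereas among loci of all widths they were 17.7 points apart. Of 746 kept loci of this width, 63.8% had an ACR at DAP9 and 63.7% at DAP15. These were 1.31% of kept loci, since their DAP5 and DAP20 ACRs together had to span just 350 bp. They were thus selected otherwise than the loci of 1 stage.

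Among the DAP5-alone loci, 2D had the highest share with an ACR at DAP9 (62.5%) and 6B the lowest (46.0%). The same chromosomes were the highest and the lowest for DAP20-alone loci (29.9% and 19.0%) and for kept loci (89.8% and 83.6%). The extremes of the DAP9 list were thus the same in each set.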

How the data were processed

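ATAC-seq of AK58 endosperm at DAP5 and whole seed at DAP20 was analysed, with groups from the labels. Per the study's methods, the authors trimmed reads with fastp (the submitters' processing notes name Trimmomatic 0.36), aligned them with Bowtie2, removed duplicates with Picard and called raw peaks with MACS2 around shifted Tn5 insertions. Peaks were binned, bins dense enough in insertions were merged, and blacklisted or organelle-like peaks were removed. The density cutoff, the genome build and any pooling of replicates are not given in the sources used here. The deposited values were ACR coordinates in base pairs, in 3 columns without score or read number, in 1 list per stage. Steps that act on bins and density can set widths and edges, and depth is unknown.

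ACRs overlapping by at least 1 bp were merged into loci. Distances were taken edge to edge, positions from locus midpoints, and chromosome length as the largest end coordinate in any of the 4 lists. Ends were the outer 20% at either end. Shares have Wilson and differences Newcombe 95% intervals, and medians have order statistic intervals. The loci named were, by rule, the widest of each set and subgenome, the longest DAP5-alone and DAP20-alone runs, the largest narrowing and widening, the extreme chromosomes and the 10 Mb windows with the highest DAP5-alone and DAP20-alone shares. Members, lists and rules were chosen with earlier results of these data known. The alternatives were minimum widths of 300 and 350 bp, the 50000 widest ACRs, a reciprocal overlap of 50%, 350 bp around midpoints, merging within 500 bp, leaving out chromosome 1B, on-step widths, and other limits for ends and distances. Genes near the loci, sequences and motifs were not analysed here, since no genome of the lists' build was used. Tools were matplotlib 3.10.9, scipy 1.17.1, pandas 2.3.3 and numpy 2.4.6 under Python 3.11.15, and the merging was tested on simulated data.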

Additional observations from a re-analysis of the deposited data

How the results depend on the processing

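No paired analysis was possible because each stage had a single list, and leaving out replicates was likewise not possible. Of 81 recalculations, 45 stayed within the counting interval of the main value (for numbers, within a factor of 1.5) and 36 moved. Only the differences between sets or subgenomes and the log2 width change could change sign, and 0 of them did. On-step widths for shares, numbers, ends and distances, the settings without group 7, 2D or 4B, and those with loci of 350 bp were chosen after seeing the data. The planned count of genes near the loci was not run.

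The kept share was 37.2% with a minimum of 350 bp, 32.6% with the 50000 widest ACRs, 23.0% with reciprocal overlap, 31.0% around midpoints, 41.5% with merging within 500 bp, 25.4% with on-step widths and 30.1% in base pairs. With the 50000 widest ACRs there were 25685 DAP5-alone loci (median 800 bp) and 24187 DAP20-alone loci (median 534 bp), since fewer ACRs were used. With reciprocal overlap there were 64471 DAP20-alone loci.

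The difference at chromosome ends was 5.19 points with reciprocal overlap, 6.24 around midpoints, 5.23 with on-step widths, 4.70 for the outer 10% and 4.91 for the outer 30%. The D minus B difference in the kept share was -1.72 points with reciprocal overlap and -0.295 with on-step widths. The difference within 10 kb of a kept locus was -4.59 points with a minimum of 350 bp, -0.483 with reciprocal overlap, -1.10 around midpoints and -3.41 with on-step widths. It was -4.73 within 2 kb and -4.82 within 50 kb.

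The median log2 width change was -0.38 with the 50000 widest ACRs, -0.37 with on-step widths and -0.20 with 1 ACR in each list, and the mean was -0.33. Without 4B, DAP15 ACRs were found in 37.9% of DAP20-alone and 83.2% of kept loci. For loci of 350 bp, the DAP9 and DAP15 shares were 37.5 and 22.0% of DAP5-alone loci and 63.8 and 63.7% of kept loci, and the DAP15 share was 36.7% of DAP20-alone loci. Stricter matching lowers the kept share by construction. The cause of the other shifts was not tested.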
